A study of Mus musculus with 18 samples.

Results

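Mouse genes are called replication-dependent histone genes here when their symbols in the GENCODE vM21 annotation start with Hist1h, Hist2h or Hist4h. The rule used the symbol alone and no measured value. It leaves out symbols that start with Hist3h and takes in annotated pseudogenes such as Hist1h2al. It found 67 genes in the annotation, of which 55 had a column among the 35808 genes of the single-cell tables, with between 45 and 55 of them in any 1 table. Cells came from hearts of the strain Myh6/Esr1-Tomato, whose tamoxifen-activated Cre is driven by the cardiomyocyte promoter of Myh6 and switches on a red reporter. Tamoxifen was given to the mothers in the first days after the birth of the pups. The hearts without a virus are called wild-type here, although all of them carried these transgenes. They were taken at postnatal day 4, 7, 14 or 28 (P4, P7, P14 and P28), with 2, 2, 2 and 6 samples, each 1 nanowell chip. A further 6 chips, labelled as mixed, held cells of the same strain from P28 hearts injected at P1 with a lentivirus whose hairpin RNA targets Jun (shJun) or no gene (shNT), from 2 animals per hairpin as named in the well reports. Hearts were digested with a kit at P4 and P7 and by Langendorff perfusion at P14 and P28, so age and digestion cannot be told apart between P7 and P14. Each value is a count of unique molecular identifiers (UMIs), and each UMI stands for 1 captured RNA molecule. Levels are in CPM, the UMIs of a gene in a sum of wells scaled to the same UMI total in every sum.

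Histones package DNA. An octamer of the core histones H2A, H2B, H3 and H4 forms the nucleosome, and the linker histone H1 binds the DNA between nucleosomes. A cell that copies its genome must also double its histones, and the genes described here are known for being transcribed mainly in S phase. Their messenger RNAs are the only ones in animal cells that normally end in a conserved stem-loop, bound by the protein Slbp, in place of a poly(A) tail. A second set of histone genes, the replacement variants such as H3f3a, H3f3b and H2afz, is polyadenylated and is expressed outside S phase too. The libraries here were made from polyadenylated RNA, so the values count whatever polyadenylated or internally primed RNA of these genes was captured, and not the stem-loop form as such.

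The 55 members held 431234 UMIs in the wells that passed filters, which was 707 CPM, and 33 of them had at least 1000 UMIs while 2 had fewer than 50. By histone type, H2a genes (17 members) gave 44.5% of the member UMIs, H2b genes (14 members) 23.6%, H1 genes (6 members) 22.5%, H4 genes (13 members) 8.85% and H3 genes (5 members) 0.614%. A single gene led most types. Hist1h2bc held 81.7% of the H2b UMIs, Hist2h3c2 50.7% of the H3 UMIs, Hist1h1c 48.2% and Hist1h1e 38.0% of the H1 UMIs, Hist1h2ap 46.2% of the H2a UMIs and Hist1h4h 31.8% of the H4 UMIs. The next largest H2a gene, Hist1h2al with 14.9% of the H2a UMIs, is annotated as a processed pseudogene. Of the 12 annotated genes without a column, 7 encode H3, 3 encode H2b and 2 encode H2a.

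Of the 67 genes, 56 lie on chromosome 13, 10 on chromosome 3 and 1 on chromosome 6 (mm10, which is GRCm38). Hist1h2ap (ENSMUSG00000094777) lies at chr13:21833026-21833507 on the minus strand, Hist1h2bc (ENSMUSG00000018102) at chr13:23684199-23692908 on the plus strand, Hist1h1c (ENSMUSG00000036181) at chr13:23738808-23740367 on the plus strand and Hist1h1e (ENSMUSG00000051627) at chr13:23620629-23622558 on the minus strand. Of the 55 members with a column, 50 have a single exon. Genes of 1 type are near copies of each other. In the median H2a member 66.5% of the 60-base windows of the transcript occur in another of the 67 genes as well, against 59.7% for H3, 52.4% for H2b, 31.6% for H4 and 0.937% for H1. For Hist1h2ap the share was 92.9%. The deposited well reports hold 0 multimapped alignments, so reads that fit several copies equally well were not counted, and the level of a single H2a, H2b, H3 or H4 gene is uncertain for that reason. Sums per histone type are therefore given beside single genes, although they lack the shared reads too.

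The stem-loop is the feature that sets these messenger RNAs apart, and it was looked for anywhere in the annotated transcripts, as a 6-base stem that starts with GG, a 4-base loop that starts with TT and the matching stem. It was found in 42 of the 67 genes and in 130 of 21877 protein-coding genes (0.594%). In the lines below, 5′ to 3′ and as DNA, capitals mark the paired stem bases. They show the leading genes of each type that carry the motif.
Hist1h1c: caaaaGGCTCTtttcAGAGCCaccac
Hist1h1e: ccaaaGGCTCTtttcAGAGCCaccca
Hist1h2ap: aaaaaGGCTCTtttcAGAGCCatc
Hist2h2ac: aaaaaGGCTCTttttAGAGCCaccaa
Hist1h2be: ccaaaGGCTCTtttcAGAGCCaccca
Hist2h3c2: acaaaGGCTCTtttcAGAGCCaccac
Hist1h4h: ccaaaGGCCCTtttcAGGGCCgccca
Hist1h4d: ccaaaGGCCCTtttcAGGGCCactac
The GGCTCT stem was present in every H1, H2a, H2b and H3 gene in which the motif was found, whereas the H4 genes had a GGCCCT stem in 9 genes and a GGTCCT stem in 2. Annotated transcripts differ in where they end relative to the stem-loop. In 19 members with a column, holding 34.1% of member UMIs, the transcript ended within 100 bases after it. Hist1h2ap ended 3 bases after it. In 16 members, holding 28.3% of UMIs, the transcript ran on for more than 100 bases, among them Hist1h1c with 840 bases and Hist1h1e with 1153 bases. In 10 members, with 9.42% of UMIs, the annotated transcript ended with the coding sequence, and in another 10, with 28.1% of UMIs and Hist1h2bc and Hist1h2al among them, the motif was not found either.

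Promoters of 60 of the 67 genes were found in the RefSeq table (GRCm38.p6), as the 250 bases before and 50 bases after the start. CCAAT, searched on both strands, was in 85% of them against 41.1% of the 27025 promoters in that table. TATAAA was in 56.7% against 15.7%, and the octamer ATTTGCAT, the site known for octamer-binding proteins at H2b promoters, in 21.7% against 1.97%. The octamer was found in 7 of 15 H2b and 6 of 17 H2a promoters and in none of the H1, H3 and H4 promoters, and CCAAT in every H1, H2a, H2b and H3 promoter but in 3 of 12 H4 promoters. The 250 bases upstream of 3 genes show these arrangements, with capitals marking the motifs on either strand. Hist1h2ap (chr13:21833476-21833725, minus strand) has CCAAT at 3 places and no TATAAA. Hist2h2ac (chr3:96220881-96221130, minus strand) has CCAAT at 3 places, the octamer and TATAAA. Hist1h4k (chr13:21750554-21750803, minus strand) has TATAAA alone.
Hist1h2ap: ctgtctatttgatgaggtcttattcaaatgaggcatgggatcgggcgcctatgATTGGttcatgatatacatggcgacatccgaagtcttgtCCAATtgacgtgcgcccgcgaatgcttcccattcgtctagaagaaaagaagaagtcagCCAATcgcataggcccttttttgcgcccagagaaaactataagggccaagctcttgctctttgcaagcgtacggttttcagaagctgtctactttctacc
Hist2h2ac: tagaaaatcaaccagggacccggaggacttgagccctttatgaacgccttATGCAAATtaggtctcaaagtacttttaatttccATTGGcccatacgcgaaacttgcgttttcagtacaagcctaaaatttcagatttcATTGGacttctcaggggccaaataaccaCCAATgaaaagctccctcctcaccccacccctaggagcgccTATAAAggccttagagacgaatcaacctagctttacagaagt
Hist1h4k: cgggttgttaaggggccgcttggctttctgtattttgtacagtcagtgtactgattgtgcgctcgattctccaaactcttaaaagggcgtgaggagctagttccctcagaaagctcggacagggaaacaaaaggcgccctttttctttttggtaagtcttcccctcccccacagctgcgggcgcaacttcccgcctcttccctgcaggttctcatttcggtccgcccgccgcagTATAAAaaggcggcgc

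The chips held between 11161784 and 133264535 UMIs, and 19822 of 23475 cell wells passed the filters, 12829 of them wild-type with a median of 9869 UMIs and 6993 from knockdown chips with a median of 32359 UMIs. By stage, 2359 wells passed at P4, 2428 at P7, then 1691 at P14 and 6351 at P28. Wells were clustered within each stage and knockdown animal, and clusters were called CM-like (cardiomyocyte), Fibroblast-like, Endothelial-like and so on from marker lists. UMIs were summed per sample and class where a sample had at least 20 wells of the class. CM-like sums could be made for both P4 samples, 1 P7 sample, no P14 sample and 3 P28 samples. At P4 and P7 both chips of a stage named the same 2 animals in their well reports, and p-values there measure the spread between chips, which may be technical. Of 5006 well barcodes 4671 occurred in more than 1 sample, as the set of barcodes on a chip is fixed. Wells called erythroid carried between 24.8 and 84.6 CPM of member RNA in 4 sums, and the 90 negative control wells 309 CPM (16 UMIs, exact Poisson interval from 177 to 502, which covers counting error only). Of those UMIs 12 came from knockdown chips and 1 from each wild-type stage, and 91 positive control wells read 343 CPM. The P28 CM-like sums and the P14 Endothelial-like sums given below lie within that interval, as do some other late sums.

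Histone RNA was higher at P4 and P7 than at P14 and P28 in Fibroblast-like and Endothelial-like wells and than at P28 in CM-like wells, which had no P14 sum. In Fibroblast-like and Endothelial-like wells most of that difference lay in H2a and H1 genes. In Fibroblast-like wells all member genes together gave 2161 and 1794 CPM in the P4 samples and 1390 and 1643 at P7, against 215 and 538 at P14 and 1186, 270 and 482 at P28. The early and late samples did not overlap. Of the 262 Fibroblast-like wells of P14, 135 came from a cluster led by Mfap5, Nupr1 and Dcn. The other 127 came from one led by Gm22519, Abca8a and Stxbp3-ps, with no marker of the fibroblast list among its leading genes. The part of that cluster in the P14 levels was not tested. In Endothelial-like wells the P4 sums were 1979 and 1967, those of P7 1813 and 2555, those of P14 296 and 266, and those of P28 723, 883, 327, 438, 244 and 618, again without overlap. CM-like wells carried less at the early stages, with 842 and 616 CPM at P4 and 917 in the only P7 sum, against 454, 340 and 438 at P28. In Macrophage-like wells late samples reached the early range. They gave 1325 and 1007 at P4, 1946 and 1468 at P7, then 285 and 633 at P14 and 1819, 1293, 565 and 671 at P28.

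The types parted ways. In Fibroblast-like wells the H2a sum was 1658 and 1110 CPM at P4, 835 and 1066 at P7, then 54.5 and 171 at P14 and 437, 75.1 and 266 at P28. The late mean was 6.27-fold lower (186 against 1167 CPM). The H1 mean was 2.74-fold lower (129 against 354 CPM), with late samples between 40.9 and 317 that overlapped the early range of 273 to 475. The H2b mean was 140 late against 171 early and the H4 mean 52.4 against 50.9 CPM, with late samples on both sides of the early ones for each. In Endothelial-like wells the late H2a mean was 10.3-fold lower (133 against 1371 CPM) and the H1 mean 5.03-fold lower (86.3 against 435 CPM), and neither overlapped. There the H4 mean was 1.89-fold lower (54.0 against 102 CPM) and the H2b mean 1.19-fold lower (131 against 156 CPM), and late samples overlapped early ones in both. H3 sums never passed 22.3 CPM in these 2 classes, too few to follow by stage. These sums are descriptions and carry no test. As 81.7% of the H2b UMIs were those of Hist1h2bc, the H2b sum mostly follows that gene.

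**Figure D1:**
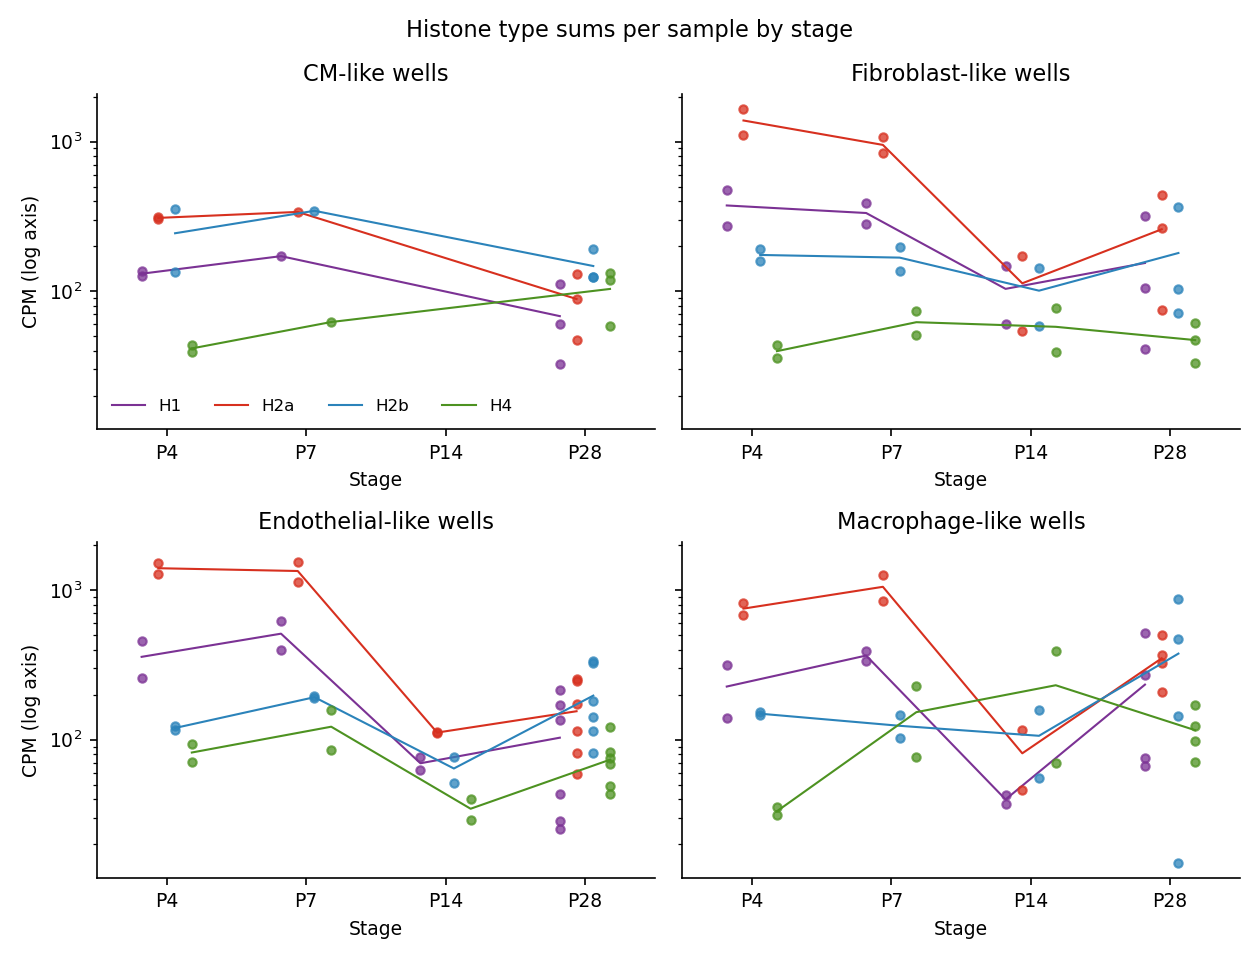
Sums of the H1, H2a, H2b and H4 members per sample (points, CPM on a log axis) by stage in 4 classes of wells, with lines through the stage means; H3 is left out. The H2a points drop between P7 and P14 in the Fibroblast-like, Endothelial-like and Macrophage-like panels, while the late H2b points lie on both sides of the early ones in the Fibroblast-like and Endothelial-like panels.

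Hemoglobin RNA also moved with the stages, with early and late sums that overlapped in Endothelial-like wells alone of the 4 classes. The 7 erythroid markers together gave between 394 and 8577 CPM in early Fibroblast-like sums and between 34229 and 246953 in late ones, and between 517 and 10614 against between 2306 and 113658 in Endothelial-like sums. At least 4 of the 7 markers had UMIs in each of these sums. They gave between 252 and 1286 early and between 4488 and 46347 late in CM-like sums, and between 780 and 5998 early and between 23060 and 218385 late in Macrophage-like sums. With the erythroid markers taken out of the totals, the late H2a mean was 5.71-fold lower in Fibroblast-like and 9.70-fold lower in Endothelial-like wells, and the H2b mean 1.10-fold and 1.14-fold lower. Cardiomyocyte markers, all 8 detected in each sum, ranged between 11461 and 13241 CPM in early and between 989 and 8247 in late Fibroblast-like sums. In Endothelial-like sums they ranged between 13322 and 18074 early and between 1752 and 64637 late. The highest of these lay within the range of late CM-like sums (49468 to 79393). The part of either marker list in the stage difference was not tested.

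Gene by gene, 13 of the 39 members tested were lower at P14 and P28 than at P4 and P7 in Fibroblast-like wells and none was higher (edgeR's quasi-likelihood test, Benjamini-Hochberg adjusted p under 0.05 over 16029 genes), where 2.77% of all genes tested were lower. A further 16 members did not pass the filter on low counts. The 13 were 11 of 16 H2a genes and 2 of 4 H1 genes, against 0 of 9 H2b, 0 of 9 H4 and 0 of 1 H3 genes. As H2a genes are near copies of each other, such counts, here and in the tests below, are not counts of independent results. Without P4 replicate 1 the count was 8, and sums per animal, where the well reports name animals, gave 7 of 35 tested. The late Fibroblast-like sums came from both P14 samples and P28 replicates 2, 4 and 6, while the P28 sums of CM-like wells came from replicates 1, 3 and 5. Perfused hearts were parted into cardiomyocytes and other cells by centrifugation, and the well reports name the 2 fractions on the P14 chips and neither on the P28 chips, so the fraction of a P28 well is not given in the sources used here. Endothelial-like wells came from all 6 P28 samples, with H2a sums of 174, 59.2 and 81.3 CPM in replicates 1, 3 and 5 and of 256, 114 and 246 in replicates 2, 4 and 6. The median log2 fold change was -3.88 over the H2a genes, -1.48 over the H1 genes, -0.11 over the H2b genes and 0.26 over the H4 genes, beside -0.12 over all genes.

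Hist1h2ap, the H2a gene with the most UMIs, read 836 and 691 CPM at P4, 504 and 593 at P7, then 5.48 and 21.0 at P14, and 206, 7.95 and 85.5 at P28 in Fibroblast-like wells. Every late sample lay below every early one, and the log2 fold change was -4.03 ± 0.60 (SE, adjusted p = 0.000422). Hist1h2ab, another core H2a gene, read between 22.4 and 115 CPM in the early samples and between 0 and 11.2 in the late ones (log2 fold change -4.76 ± 0.84, adjusted p = 0.00209). Hist1h2ae, at 35.2 to 55.5 CPM early, had no UMI in either P14 sum and 22.8, 1.85 and 1.06 CPM at P28. Hist1h2ai likewise had none at P14. The fitted changes of these 2, -6.83 and -6.97, depend on the prior count and are no bounds, and so do those of Hist1h2ab and Hist1h1b, whose P14 replicate 2 sum was empty. With 1 sum left out in turn Hist1h2ab ran from -7.46 to -3.99 and Hist1h1b from -7.63 to -4.56. Hist1h1b, a linker histone gene whose annotated transcript has no stem-loop, read between 41.3 and 87.3 CPM early and between 0 and 11.7 late (-4.91 ± 0.87, adjusted p = 0.00209).

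The 2 linker genes that gave most of the H1 RNA got different calls in Fibroblast-like wells, a difference between them that was not tested. Hist1h1e was lower late, at 110, 210, 153 and 227 CPM early and 23.9, 37.6, 127, 22.1 and 42.0 late (-1.75 ± 0.44, adjusted p = 0.0265). Hist1h1c read 75.8, 159, 59.2 and 92.8 early and 31.4, 101, 169, 14.6 and 40.9 late, and its change of -0.27 ± 0.53 did not pass (adjusted p = 0.8287). The largest H2b and H4 genes and the H2a pseudogene also did not pass. Hist1h2bc read between 110 and 160 CPM early and between 46.1 and 280 late (-0.15 ± 0.42, adjusted p = 0.890). Hist1h2al read between 37.9 and 81.1 early and between 31.4 and 117 late (0.67 ± 0.45, adjusted p = 0.432). Hist1h4h, at 2.88 to 9.83 early and 2.66 to 25.5 late, had a change of 1.47 ± 0.74 (adjusted p = 0.278).

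In Endothelial-like wells the lower genes were again H2a and H1 genes. Of 38 members tested, 9 were lower late and none higher, where 0.967% of all genes were lower. They were 7 of 16 H2a and 2 of 5 H1 genes, against 0 of 7 H2b, 0 of 3 H3 and 0 of 7 H4 genes, with median log2 fold changes of -3.77, -2.84, 0.10, -0.63 and -1.73 in that order beside 0.02 over all genes. Hist1h2ap read 754 and 775 CPM at P4, 657 and 851 at P7, then 29.97 and 7.50 at P14, and 28.1, 103, 10.4, 18.9, 28.4 and 17.9 at P28 (-4.57 ± 0.60, adjusted p = 0.00128). Hist1h1e, between 115 and 352 CPM early and between 11.4 and 67.5 late, was lower by the same test (-2.84 ± 0.49, adjusted p = 0.00542). Hist1h2ao, Hist1h2ab and Hist1h2ae, 3 more H2a genes, followed at -4.25, -4.62 and -4.17. Each had at least 1 empty late sum, so these fitted changes depend on the prior count. With 1 sum left out they ran from -5.11 to -3.94, from -5.02 to -3.96 and from -7.47 to -3.76. Hist1h1c read between 76.5 and 163 early and between 13.7 and 125 late (-0.80 ± 0.55, adjusted p = 0.528), and Hist1h2bc between 84.5 and 167 early and between 46.2 and 286 late (-0.06 ± 0.44, adjusted p = 0.973). The count of 9 rested on the P14 samples: it was 1 without P14 replicate 2, 3 without P14 replicate 1 and 5 without P7 replicate 2, and Hist1h2ap passed in every one of the 12 fits that left out 1 sum.

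**Figure D2:**
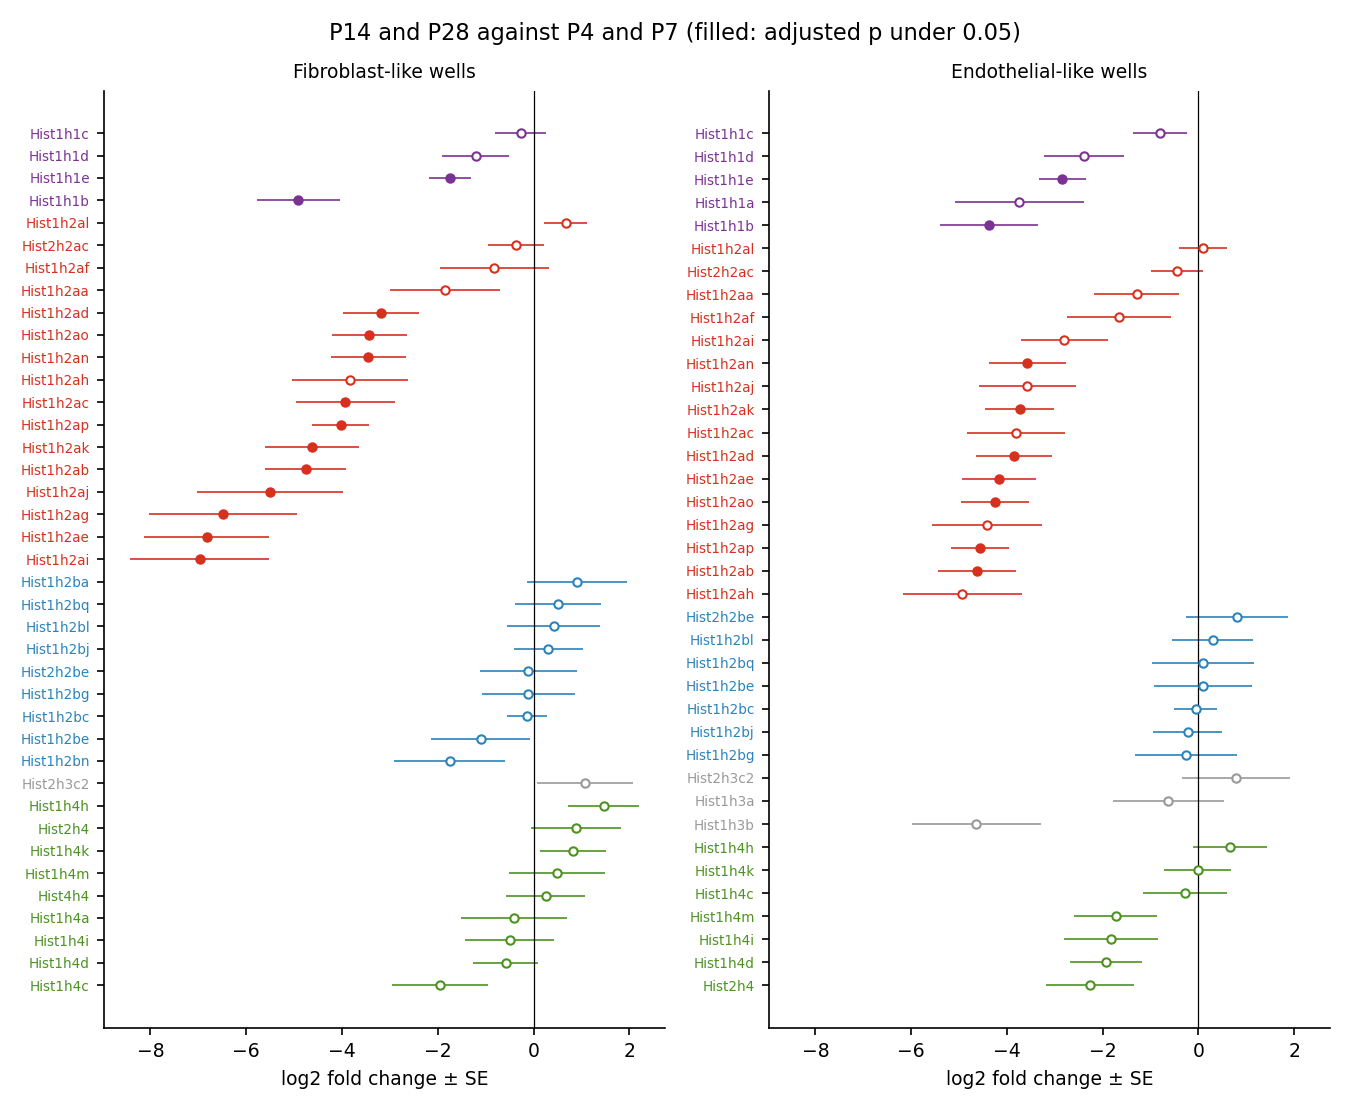
Log2 fold change of each member tested, P14 and P28 against P4 and P7, with its standard error (bars), grouped by histone type in Fibroblast-like and Endothelial-like wells; filled points passed an adjusted p of 0.05 by edgeR. Filled points are H2a and H1 genes in each panel (13 and 9 genes), and the H2b genes scatter around 0.

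In CM-like wells, where the late group was P28 alone, 4 of 37 members were lower (2.67% of all genes) and 1 was higher (5.13% of all genes). Hist1h2ap read 142 and 173 CPM at P4, 167 in the P7 sum and 14.6, 5.59 and 11.7 at P28 (-3.64 ± 0.44, adjusted p = 0.000716). Hist1h1e read 61.0, 53.9 and 84.9 early and 17.9, 9.87 and 9.43 late (-2.16 ± 0.42, adjusted p = 0.00699), and Hist1h2ak (-3.01, adjusted p = 0.0169) and Hist1h2ao (-3.70, adjusted p = 0.0195) were the other 2 lower genes by edgeR. Both of these calls were lost without P28 replicate 3 and without the wells called cycling. Hist1h2ak stood at 0.83 in wells thinned to at most 5000 UMIs, and Hist1h2ao ran from -5.85 to -3.11 with 1 sum left out. The higher member, Hist1h2be, read 2.42, 3.11 and 0 early and 13.8, 4.999 and 4.61 late. Its fitted change of 5.43 ± 1.52 (adjusted p = 0.0410) depends on the prior count because of the empty P7 sum and was 1.81 without that sum. The call was also lost without P4 replicate 1, P28 replicate 1 or P28 replicate 3, and the count of lower members was 2 without P28 replicate 3.

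The CM-like wells of the stages came from clusters with different leading genes. At P4 198 wells belonged to a cluster led by Sln, Myl7, Myl1 and Nppa, of which Sln, Myl7 and Nppa are known from atrial cardiomyocytes, and 110 to one led by Ttn and Mhrt. The 42 wells of P7 were led by Ttn. At P28 710 wells were led by Cox7a1, Trdn and Nexn, 568 by Acta1, Nppb and Spink4, 458 by Sp1 and Gm11410, and 106 by Rgs1, Ccl4 and Cxcl2, genes known from immune cells. Without the P4 cluster led by Sln, an alternative added after seeing the data, the count of lower members was 1 of 27, namely Hist1h2ap (-3.68, adjusted p = 0.00639 by edgeR), and that of higher members 0. Without the cluster led by Rgs1, also added after seeing the data, the counts were again 4 and 1. All 8 CM markers were detected in every CM-like sum. The 8 endothelial markers together gave between 318 and 571 CPM in early and between 834 and 1138 in late CM-like sums, and the 8 macrophage markers between 13.1 and 76.5 against between 228 and 626, without overlap. The part of these markers in the CM-like differences was not tested.

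Macrophage-like wells had 1 lower member of 29 tested, where 0.743% of all genes were lower. This was Hist1h2ap, at 425 and 401 CPM at P4, 784 and 507 at P7, then 20.3 and 29.96 at P14 and 66.1, 102, 48.2 and 98.8 at P28 (-3.22 ± 0.44, adjusted p = 0.000320). Hist1h2bc ranged between 5.72 and 708 CPM among the 4 P28 sums of this class alone. Without P14 replicate 1 or P28 replicate 1 the count of lower members was 3. It was also 3 for sums per named animal, 4 without TMM scaling or in wells thinned to at most 5000 UMIs, and 5 by DESeq2, which called 2 members higher.

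No member was called between P7 and P4, the stages that shared a digestion. None of the 37, 39, 38 and 29 members tested in CM-like, Fibroblast-like, Endothelial-like and Macrophage-like wells passed in edgeR, where 0.673%, 0.0437%, 0% and 0.0268% of all genes did. At an unadjusted p under 0.05 there were 1, 1, 0 and 2 members, and DESeq2 also called 0 in each class. The change was positive for 13, 20, 29 and 22 of these members, with medians of -0.62, 0.06, 0.28 and 0.80 beside -0.56, 0, 0 and -0.03 over all genes, and a p that misses the threshold does not show equal levels. In CM-like wells P7 was a single sum of 24 wells, which the fit assumes to vary like the other groups.

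Cycling wells were called from lists of S phase and G2/M genes that hold no histone gene. A well was called cycling when at least 3 of those genes had a UMI and they made up at least 0.1% of its UMIs. By this rule 59.8% of Fibroblast-like wells were cycling at P4, 70.8% at P7, then 2.29% at P14 and 9.60% at P28, and 67.3, 80.6, 1.92 and 11.9% of Endothelial-like wells. The share is a cut through a continuous range, since 37.7% of P4 and 40.4% of P7 Fibroblast-like wells lay between 0.05 and 0.2%, and cycling wells were deeper (median 18429 against 8697 UMIs at P4 in Fibroblast-like wells). After thinning wells to 5000 UMIs the P4 and P7 shares were 60.9 and 67.6%. Within each of the 4 classes the late samples, with fewer cycling wells, held less H2a RNA than every early sample, whereas the H2b sums overlapped. Across classes the order did not hold. The P4 CM-like sums had 313 and 305 CPM of H2a with 42.7 and 41.2% cycling wells. The Macrophage-like sum of P28 replicate 6 had 498 with 24.1%.

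**Figure D3:**
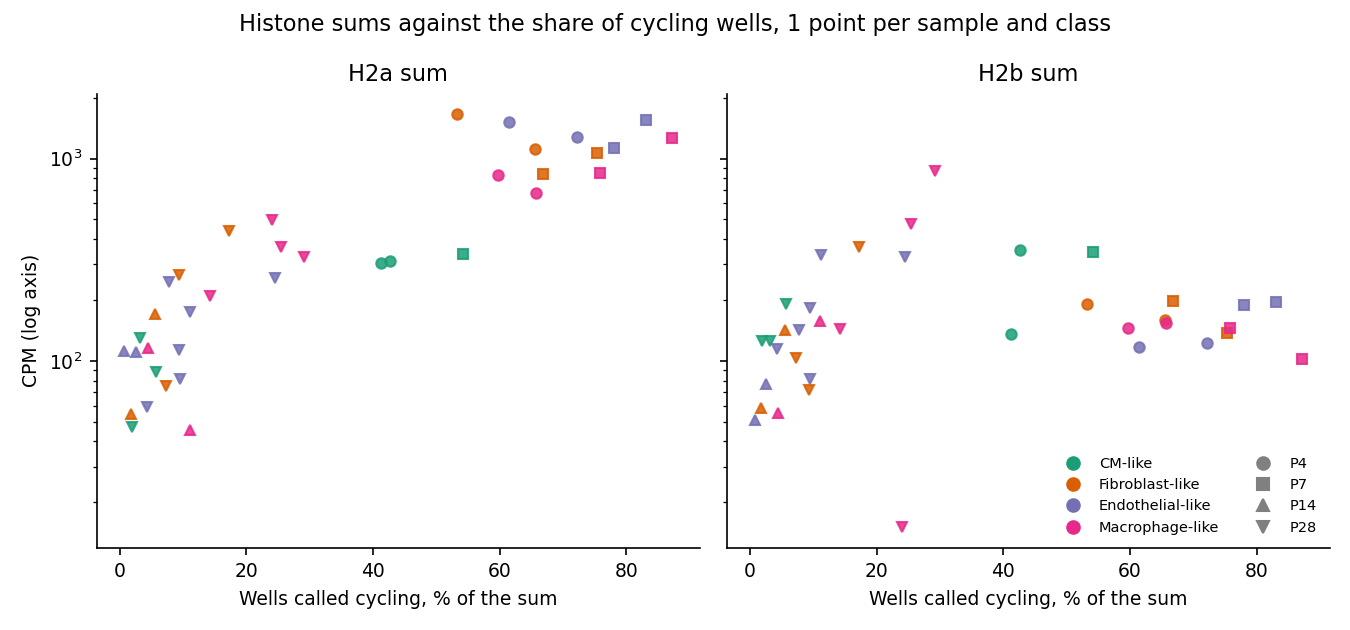
H2a sum (left) and H2b sum (right) in CPM on a log axis against the percentage of wells called cycling, with 1 point per sample and class, colours for the 4 classes and symbols for the stages. Samples at P4 and P7 sit at the right with H2a sums between 305 and 1658 CPM, and those at P14 and P28 at the left with 45.8 to 498. These H2a ranges overlap across classes but not within a class, while the H2b points of early and late samples overlap within each class.

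Graded by that share, histone RNA climbed most steeply in the last steps of the range. In Fibroblast-like wells of the 4 P4 and P7 samples the member genes together gave 770 ± 225 CPM (mean ± SD, n = 4 samples) in wells with under 0.05% cell cycle list UMIs, 816 ± 280 between 0.05 and 0.1%, 859 ± 147 between 0.1 and 0.2%, 907 ± 232 between 0.2 and 0.5%, 2343 ± 671 between 0.5 and 1% and 7600 ± 1708 at 1% or more. The H2a sum went from 367 ± 148 in the lowest over 496 between 0.2 and 0.5% to 5922 ± 1701 CPM in the highest of these bins and the H1 sum from 151 ± 50.4 to 1322 ± 647. The H2b sum was 210 ± 40.3 and 212 ± 74.7 at those ends. Hist1h2bc held 81.7% of the H2b UMIs, so that sum mostly follows this gene. Over all classes at P4 and P7, 65.2% of Hist1h2bc UMIs lay in wells called cycling, against 90.3% for Hist1h2ap. Other H2b genes ran from 64.7% (Hist1h2be) over 81.8% (Hist1h2bj) to 93.7% (Hist1h2br, from 79 UMIs). Endothelial-like wells went from 839 ± 373 to 5917 ± 2101 CPM for all members together and from 461 ± 163 over 755 between 0.2 and 0.5% to 4475 ± 2137 for H2a, while H2b stood at 134 ± 117 and 198 ± 98.5. There the H4 sum was 10.1 ± 7.52 in the lowest and 228 ± 63.5 in the highest bin, and the H3 sum, the least detected type, 1.52 ± 1.30 and 64.8 ± 25.8.

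**Figure D4:**
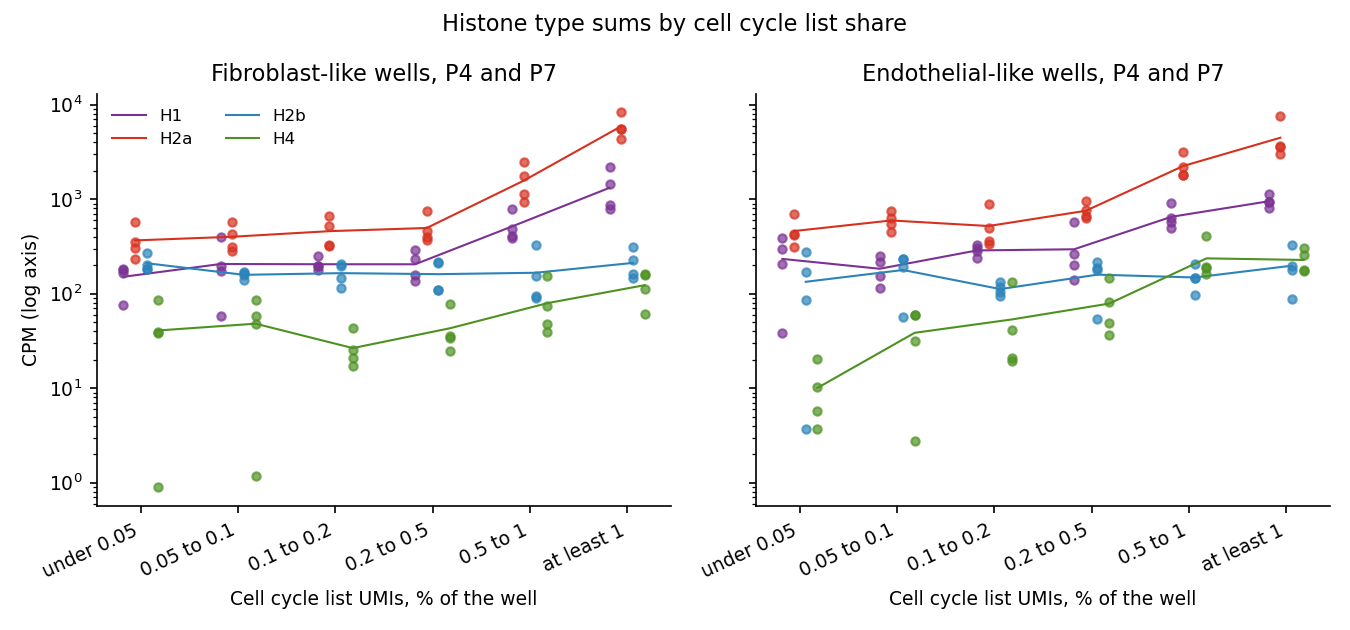
Sums of the H1, H2a, H2b and H4 members (CPM, log axis) in P4 and P7 wells binned by the percentage of their UMIs from the cell cycle lists, with 1 point per sample, values of 0 left off and lines through the means of the samples. The H2a lines stand at 496 and 755 CPM between 0.2 and 0.5% and rise most steeply in the last 2 bins, while the H2b line ends at 212 in Fibroblast-like and 198 in Endothelial-like wells, from 210 and 134.

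Tests followed the same grading. With the cut at 0.1% no member passed in Fibroblast-like wells (0 of 33 in edgeR with the sample as a block, 15 at an unadjusted p under 0.05, 9 by DESeq2), where 0.166% of all genes were higher in cycling wells. In Endothelial-like wells 1 of 38 was higher, Hist1h2ap (1.85 ± 0.35, adjusted p = 0.0241), where 0.214% of all genes were, and DESeq2 called 8. That call was lost without P4 replicate 1, P4 replicate 2, P7 replicate 2 or P28 replicate 1. In Macrophage-like wells it was 0 of 33 (0.0175% of all genes), with 7 at an unadjusted p under 0.05 and 4 by DESeq2. Asking for 5 genes and 0.2% gave 4 of 41 higher members in Fibroblast-like wells (0.565% of all genes), all H2a genes, and 7 of 45 in Endothelial-like wells (0.466%), which were 6 H2a genes and Hist1h1e.

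Wells with at least 1% cell cycle list UMIs set against wells with under 0.1%, a contrast chosen after the grading had been seen, gave the most calls of the 3 rules. In Fibroblast-like wells 13 of 33 members were higher (1.52% of all genes), 11 of 16 H2a and 2 of 4 H1 genes, and in Endothelial-like wells 9 of 36 (0.91% of all genes), 7 of 15 H2a and 2 of 4 H1 genes. No H2b, H3 or H4 gene passed in either class. In Fibroblast-like wells Hist1h2ap read 4261, 3654, 2711 and 3140 CPM in the high wells of the 4 samples and 124, 128, 206 and 345 in the low wells (log2 fold change 4.28 ± 0.33, adjusted p = 0.000104). Hist1h1e (2.68 ± 0.31, adjusted p = 0.00143) and Hist1h1c (2.56 ± 0.32, adjusted p = 0.00202) were the H1 genes. Hist1h1c thus passed here, while its change by stage had not passed. Hist1h2bc read 187, 80.4, 117 and 82.0 CPM in the high and 158, 158, 141 and 152 in the low wells (-0.40 ± 0.34, adjusted p = 0.799). In Endothelial-like wells Hist1h2ap read 3699, 2185, 1866 and 2080 in the high and 231, 231, 278 and 331 in the low wells (3.08 ± 0.23, adjusted p = 0.000152), and Hist1h2bc again did not pass (-0.12 ± 0.64, adjusted p = 0.997). Hist1h4d, an H4 gene, had 32.4, 74.7, 97.2 and 84.7 CPM in the high and 0, 5.72, 11.9 and 20.5 in the low Fibroblast-like wells but did not pass (3.58 ± 0.86, adjusted p = 0.0999).

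**Figure D5:**
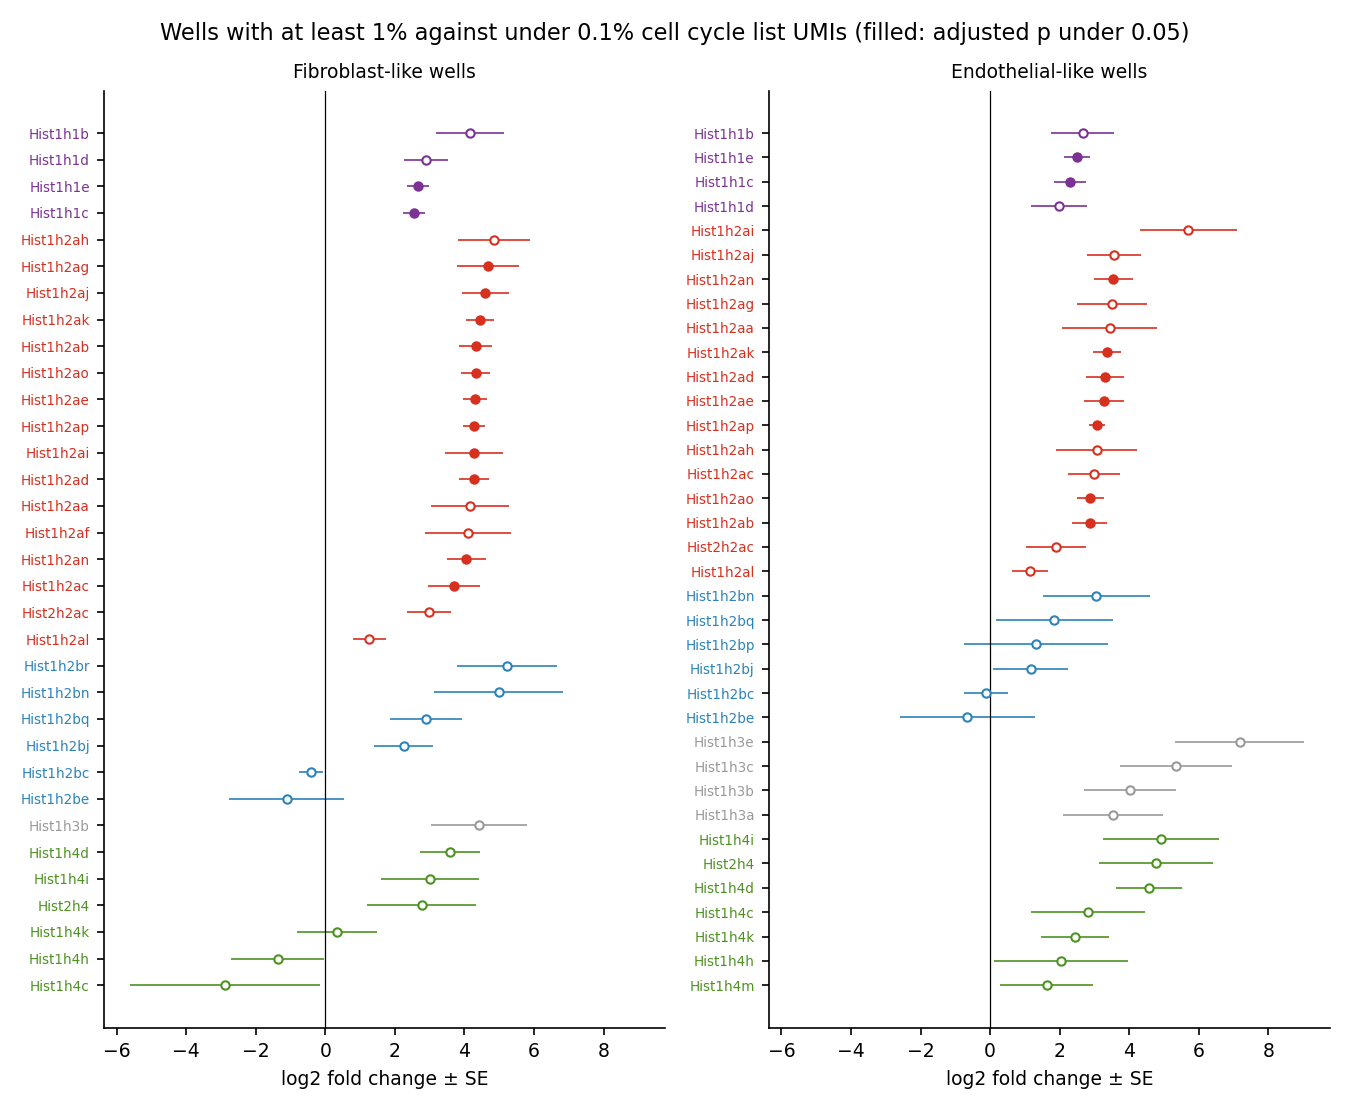
Log2 fold change of each member tested, wells with at least 1% against wells with under 0.1% of UMIs from the cell cycle lists, with its standard error (bars), in Fibroblast-like and Endothelial-like wells of P4 and P7; filled points passed an adjusted p of 0.05 by edgeR. All 13 and 9 filled points are H2a or H1 genes, and Hist1h2bc lies at -0.40 and -0.12.

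Among cycling Fibroblast-like wells, those with more S phase than G2/M list UMIs held less histone RNA than the others. The 2 groups were not matched for their total share of cell cycle list UMIs or for depth. The part of either was not tested, and the split does not assign a phase to a well. All members together gave 1993 against 4010 CPM in P4 replicate 1, 1407 against 3246 in P4 replicate 2, 1000 against 2035 in P7 replicate 1, 1022 against 2156 in P7 replicate 2 and 1059 against 6165 in P28 replicate 2, the last from 15 and 10 wells. All 5 samples had the lower sum of all members, of H1 and of H2a in the S-leaning wells. Other types went the other way in some samples, with H2b at 692 against 32.1 CPM in P28 replicate 2 and at 229 against 204 in P7 replicate 1, H4 at 95.4 against 60.6 in P7 replicate 1, and H3 at 6.39 against 4.49 in P4 replicate 1. No single member passed in edgeR (0 of 34, 13 at an unadjusted p under 0.05, 3 by DESeq2), where 0.0286% of all genes were lower in S-leaning wells. Of the 34 members 31 had a negative change, with a median of -1.25 beside 0.01 over all genes.

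Leaving out the wells called cycling lowered the number of members that differed by stage, but also left fewer wells and members to test. The count of lower members went from 13 to 3 of 26 tested in Fibroblast-like, from 9 to 2 of 25 in Endothelial-like and from 4 to 1 of 27 in CM-like wells, and it stayed at 1, of 20 tested, in Macrophage-like wells. The shares of all genes lower in these fits are not given here, so the drop cannot be read as particular to histone genes. The log2 ratio of the late to the early H2a mean was then -2.09 in Fibroblast-like and -2.14 in Endothelial-like wells, and it had been -2.65 and -3.36 with all wells.

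Genes that work with histones were read from 3 lists. Of 11 replacement variant genes, 4 were lower late in Fibroblast-like wells and none higher, where 2.77% of all genes tested were lower. H2afz, the gene of the H2A.Z variant, read 161, 125, 227 and 104 CPM early and 21.1, 34.6, 67.0, 49.0 and 19.1 late (-1.86 ± 0.40, adjusted p = 0.00956). H1f0, a linker variant (-2.02 ± 0.34, adjusted p = 0.00120), Cenpa, the centromeric H3 variant (-3.37 ± 0.69, adjusted p = 0.00574), and H1fx were the others. In Endothelial-like wells 1 of 11 was lower (0.967% of all genes), H2afz (-2.18 ± 0.53, adjusted p = 0.0389). In CM-like wells 2 of 11 were lower (2.67% of all genes), H2afz (-2.57) and H3f3a (-2.34). Neither of these 2 passed in CM-like wells without the P4 cluster led by Sln. In Macrophage-like wells 0 of 9 replacement genes were lower (0.743% of all genes). H3f3b, which encodes the same H3.3 protein as H3f3a, was the most abundant of them. It read between 1189 and 1936 CPM in early and between 525 and 1342 in late Fibroblast-like sums (-0.36 ± 0.22, adjusted p = 0.402). Of 9 histone chaperone genes, Asf1b and Chaf1b, which hand H3 and H4 to newly made DNA, were lower in Fibroblast-like and Endothelial-like wells, Asf1b alone among 8 in Macrophage-like wells and none in CM-like wells. None of the 12 genes tested for histone RNA processing was called in any class. Slbp, the stem-loop binding protein, read between 45.5 and 86.4 CPM in early and between 5.31 and 47.7 in late Fibroblast-like sums without passing (-0.91 ± 0.54, adjusted p = 0.374), and in Endothelial-like sums between 58.9 and 67.7 early and between 6.63 and 45.3 late (-1.80 ± 0.53, adjusted p = 0.0952).

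Against the share of cell cycle list UMIs, 5 of 11 replacement genes were higher in Fibroblast-like wells at 1% or more than in wells under 0.1%: Cenpa (4.57 ± 0.47), H2afx (3.18 ± 0.40), H2afz (2.28 ± 0.25), H2afv (1.87 ± 0.22) and H1f0 (1.23 ± 0.21). In Endothelial-like wells 3 of 10 were, namely Cenpa, H2afz and H2afv. Of all genes tested, 1.52% were higher in the Fibroblast-like and 0.91% in the Endothelial-like contrast. The chaperone genes Asf1b (4.62 ± 0.73) and Hjurp (2.16 ± 0.41), which loads Cenpa, were higher in Fibroblast-like wells and Asf1b in Endothelial-like wells. No processing gene passed. Of the lists that defined the share, 32 of 32 G2/M and 12 of 26 S phase genes passed in Fibroblast-like wells, which the rule fixes and which is no result.

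Other classes could be read as levels only. T_NK-like wells of P28 came from a cluster led by Trbc2, Cd8b1 and Trbc1, with Rag1 also among its leading genes. They gave 1646, 2572, 1390 and 4849 CPM of member RNA in 4 samples, of which H2a made 1086, 1371, 757 and 4344. These were above all P28 Fibroblast-like and Endothelial-like sums, and between 28.6 and 34.8% of their wells were called cycling. Mural-like wells gave 4448 and 2440 at P4 and 1478 and 1757 at P7. B-like wells gave 3319 and 1710 at P7, 304 in the P14 sum and 1077 in the P28 sum. Endocardial-like wells gave 619 and 983 at P4, 1672 and 1076 at P7, then 384 at P14 and 1256, 1088, 349 and 332 at P28. In the P28 Endocardial-like sum with 1256 CPM no well was called cycling, and H2b made 1013 of it. Granulocyte-like wells, which had between 0 and 10% cycling wells, gave 1740, 569 and 675 at P28 with H2a at 1116, 225 and 453.

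Thinned to 5000 UMIs per well, 70.8% of Fibroblast-like wells had a member UMI at P4 (435 of 614, exact 95% interval from 67.1 to 74.4%), 85.2% at P7, then 29.9% at P14 and 45.6% at P28, and the mean was 8.20, 6.83, 1.29 and 2.00 member UMIs per well. That interval treats the pooled wells as independent draws and leaves out the spread between chips and animals. For Endothelial-like wells the shares were 80.9, 89.2, 34.7 and 66.6% and the means 9.89, 10.4, 1.64 and 3.28. Erythroid-like wells, whose nuclei are condensed or lost, still had a member UMI in 14.6% at P14 and 20.6% at P28, with a mean of 0.366 and 0.368. Unthinned, the Fibroblast-like shares were 75.9, 90.1, 39.3 and 56.5% at median depths of 14236, 19516 and 11441 UMIs at P4, P7 and P14 and 10147 at P28. Counts were uneven between wells: at P28 the median Fibroblast-like well had 0 of 5000 and the highest 123.

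Jun, the target of the knockdown, read 52.7 and 64.1 CPM in the 2 shNT animals and 28.9 and 31.0 in the 2 shJun animals in CM-like wells, without overlap. In Fibroblast-like wells it read 69.2 and 127 in shNT against 188 and 85.2 in shJun, in Endothelial-like wells 122 and 93.6 against 94.8 and 147, and in Macrophage-like wells 65.8 and 234 against 163 and 82.2, all overlapping. The hairpins were thus separated by Jun in CM-like wells alone of these 4 classes. No histone gene was called between the hairpins. In CM-like wells the members together gave 299 and 381 CPM in shNT and 305 and 420 in shJun animals, and 0 of 35 passed. All of these sums lie within the exact Poisson interval of the knockdown chips' negative control wells (154 to 519 CPM, from 12 UMIs). A p that misses the threshold does not show equal levels. Of the 840 CM-like wells of shNT animal 2, 258 belonged to a cluster led by Ccl21a, Ccl21b and Pcdh17, of which Ccl21a is known from lymphatic endothelium. Without it, an alternative added after seeing the data, 0 of 34 passed. In Fibroblast-like, Endothelial-like and Macrophage-like wells 0 of 25, 0 of 30 and 0 of 28 passed. In each of the 4 classes 0% of all genes tested passed in edgeR. At an unadjusted p under 0.05 there were 1, 0, 2 and 0 members and 386, 550, 612 and 607 genes in all, and DESeq2 called 0 members. Hist1h2ap in CM-like wells read 5.47 and 8.36 CPM in shNT and 8.29 and 24.5 in shJun animals (1.196 ± 0.55, adjusted p = 0.999997), and Hist1h2bc 106 and 138 against 124 and 141 (0.07 ± 0.21).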

How the data were processed

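Single cells in ICELL8 nanowells were sequenced from polyadenylated RNA. The authors demultiplexed and trimmed the reads, aligned them to mm10 with STAR 2.5.2b, assigned them with featureCounts (Subread 1.4.6-p1) and collapsed UMIs, and the deposited tables hold raw UMI counts per gene and well, with a report per well. The deposited counts leave out multimapped reads, and the strand setting is not given in the sources used here. Reads of near-identical genes are therefore missing in part.

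Wells with at least 500 genes and a log10 UMI total within 2 SD of the group's mean were kept, which removes the deepest wells. No doublet caller was run. Wells were clustered per stage or knockdown animal (10 principal components, leidenalg 0.10.2), without histone genes, the cell cycle lists and 43 genes that follow them, and named from marker lists, so class names are rebuilt and may differ from the study's. Groups came from the labels, and hairpin and animal of knockdown wells from the well reports. Raw counts were summed per sample (per animal for the knockdown) and class, for sums of at least 20 wells (10 for cycling wells), and tested with edgeR 4.0.16 (quasi-likelihood, TMM, filterByExpr, Benjamini-Hochberg over all genes tested, R 4.3.3), with the sample as a block where wells of the same sample were compared. Levels are CPM, a gene's share of the UMIs of its sum on a common scale. DESeq2 1.42.0, no TMM, no filter, other well and cycling rules and sums left out in turn were alternatives. The tests were tried on simulated data with 200 changed genes. Members named are the 3 with the most UMIs per type and, per test, up to 5 called members of smallest p in each direction, with the genes of 3 lists (replacement variants, RNA processing and chaperones). The members and lists were chosen with earlier results of these data known. Fold changes of genes with empty sums depend on the prior count.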

Additional observations from a re-analysis of the deposited data

Results flagged for a closer look

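The H2a sum of T_NK-like wells in P28 replicate 6 was 4344 CPM, far from the other 3 P28 samples of that class, whose highest was 1371. It was the only value past Dixon's 95% limit among 24 groups of 4 to 10 samples, of which chance flags about 1 in 20. That sum came from 48 wells, of which 31.2% were called cycling, against between 28.6 and 34.8% in the other 3 samples.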

How the results depend on the processing

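With 1 sum left out in turn, the count of lower members late against early ran from 8 to 14 in Fibroblast-like, 1 to 13 in Endothelial-like, 2 to 6 in CM-like and 1 to 3 in Macrophage-like wells, and that of higher members from 0 to 2 in CM-like and 0 to 1 in Macrophage-like wells. Members higher in cycling wells ran from 0 to 1 in Endothelial-like wells, members lower in S-leaning wells from 0 to 1, and these were 0 in all such fits of the other cycling tests, of P7 against P4 and of the hairpins. Hist1h2ap kept its stage call in every such fit of the 4 classes. Without the wells called cycling the counts of lower members were 3 in Fibroblast-like, 2 in Endothelial-like and 1 in CM-like wells, and the CM-like count of higher members was 0. Without the P4 CM-like cluster led by Sln and Myl7, an alternative added after seeing the data, CM-like wells had 1 lower and 0 higher members, and leaving out the CM-like clusters led by Rgs1 (P28) and Ccl21a (shNT), also added then, moved no CM-like count. Sums per named animal gave 7 lower members in Fibroblast-like and 3 in Macrophage-like wells. DESeq2 gave 15 lower members in Endothelial-like wells, 5 lower and 2 higher in Macrophage-like wells, 2 higher in CM-like wells, 9, 8 and 4 higher in cycling Fibroblast-like, Endothelial-like and Macrophage-like wells, and 3 lower in S-leaning wells. Without the filter on low counts there were 3 lower and 1 higher members in Macrophage-like and 3 higher in CM-like wells, 5, 2 and 1 higher in cycling wells of those 3 classes, and 5 lower in S-leaning wells. Without TMM scaling, which moved the median of all genes late against early by between -0.34 and -0.29, there were 4 lower members in Macrophage-like wells, 0 higher in CM-like wells and 2 higher in cycling Endothelial-like wells. Wells thinned to at most 5000 UMIs gave 4 lower in Macrophage-like wells, 2 higher in cycling wells of Fibroblast-like and of Endothelial-like cells, and 1 lower in S-leaning wells. Sums of at least 10 wells gave 0 higher in CM-like wells. Calls of cycling from 5 genes and 0.2% gave 4 and 7 higher members in Fibroblast-like and Endothelial-like wells, the G2/M list alone 7 and 6, and the 1% contrast, chosen after seeing the data, 13 and 9. Without the sample as a block the Endothelial-like count was 0. S-leaning wells had 1 lower member with the 5-gene rule, with wells of at least 1000 genes, with calls on thinned wells and with P4 and P7 samples alone, the last also added after seeing the data.

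Log2 ratios of type sums moved by more than the spread between samples as follows. Late over early in Fibroblast-like wells, H3 was -2.18 without its largest member and 0.87 without cycling wells, and H4 was 0.79 in thinned wells. In Endothelial-like wells H2a was -2.52 without Hist1h2ap and, without cycling wells, H2a was -2.14, H3 0.82 and H4 0.79. Cycling over other Fibroblast-like wells, H2a was 3.92 in the 1% contrast and H3 was 1.79 with 5 genes, 1.78 with the G2/M list, 1.4996 in P4 and P7 samples and 3.49 in the 1% contrast. In Endothelial-like wells H2a was 2.18 with 5 genes and with the G2/M list and 3.13 in the 1% contrast, H3 was 3.72 with the G2/M list and 4.25 in the 1% contrast, and H4 was 3.08 in the 1% contrast. Signs of log2 fold changes turned for Hist1h2ak in CM-like wells (0.83 in thinned wells), for Hist1h2bc by stage in Fibroblast-like wells (0.030 with sums of at least 10 wells, and from -0.58 to 0.026 with 1 sum left out, above 0 without P28 replicate 4 or 6), for Hist1h1c by stage there (0.28 without cycling wells, and from -0.88 to 0.064 with 1 sum left out, above 0 without P4 replicate 2 or P28 replicate 4) and for Hist1h2bc by cycling there (0.020 without the block and in thinned wells, 0.12 with the G2/M list, and from -0.17 to 0.018 with 1 sample left out, above 0 without P4 replicate 2 or P7 replicate 2). None of these values had passed the test except that of Hist1h2ak. The cause was not tested in any of these. Of the other values, 568 counts and type ratios stayed within their limits. Of the values of named genes, 459 kept their direction and call, 106 kept their direction but no longer passed, 2 passed anew and 12 turned sign. No paired analysis was possible because the stages and the hairpins hold different animals, while tests between wells of the same sample kept the sample as a block.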
